A study of Mus musculus with 6 samples.

Results

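Transcripts of 33 genes typical of liver and gut epithelium were followed library by library in mouse uterus: 20 genes of the hepatocyte, the main cell of the liver, and 13 genes of the intestinal lining, out of 26018 genes listed. They were chosen by name, from a table in which their values in these same 6 libraries were already known, so their counts and levels are descriptions and no test result is read from them. All 33 names were found, each on 1 row. The study sequenced RNA from uterine tissue of mice 6 weeks old, with 1 animal per library and body weights matched between groups. The control group held 3 Tcf21 f/f mice, which carry both floxed copies of the gene for TCF21, a transcription factor of mesenchymal cells. The conditional knockout (cKO) group held 3 Tcf21 d/d mice, in which those copies were deleted. The comparison asked which genes change in the uterus when Tcf21 is lost. No treatment is named for either group, and the sources used here do not name the promoter that drove Cre.

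Hepatocytes make most proteins of blood plasma: albumin, the apolipoproteins that carry lipid, fibrinogen for clotting, inhibitors of proteases, and carriers that bind haemoglobin, haem and iron. They also hold the urea cycle and drug-metabolising cytochromes, and hepatocyte nuclear factors such as HNF1 and HNF4 switch on many of these genes. The lining of the intestine is made of absorptive enterocytes with a brush border and of goblet cells that secrete mucus, and CDX factors set its identity. None of these programmes defines the uterus, whose stroma and muscle are known instead by Pgr, Esr1 and the Hoxa10 and Hoxa11 genes. Some of the 33 genes also have other known sources, such as haptoglobin in fat.

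Reads on genes numbered 14584450 to 16579573 per library. Tcf21 stood at 341, 152 and 144 normalised counts in control replicates 1 to 3 and at 26.02, 0 and 0 in cKO replicates 1 to 3, so the groups did not overlap. A normalised count is the number of reads divided by a size factor of the library, and 1 read was worth 0.890 to 1.22 normalised counts. Pgr, Esr1, Hoxa10 and Hoxa11 had reads in all 6 libraries, but levels were uneven. Hoxa11 stood at 896, 470 and 67.6 in controls and at 36.2, 35.1 and 3.31 in cKO replicates 1 to 3. The share of the list of 8 uterus-defining genes was 0.0417, 0.0350 and 0.0213% for the controls. It was lower for every cKO library, at 0.0167, 0.0101 and 0.0104%. Pgr and Esr1 overlapped between groups, and Wnt4, also on the list, was highest in cKO replicate 3 (661). The cause of this difference was not tested. Each of the 3 control libraries stood apart from the rest: replicate 1 by liver transcripts, replicate 2 by gut transcripts and replicate 3 by a list of 15 autonomic and enteric neuron genes, which took 0.0616% of its reads against at most 0.0131% elsewhere. Results below are therefore given with and without the library they rest on. The tissue is bulk, so fewer cells of a type and less RNA per cell cannot be told apart. How the tissue was dissected is not described in the sources used here.

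The upstream sequences of 3 hepatocyte genes are shown because their transcripts peaked together in 1 library. Each holds the core of an HNF1 site close to the RefSeq start of the gene. The capitals mark that core, GTTAAT, on either strand. Each run is the 250 bases before the RefSeq start of the gene on GRCm38.p6, written in the direction of the gene: Alb on the plus strand at chr5:90460620-90460869, Fgb on the minus strand at chr3:83049864-83050113, and Serpina1a on the minus strand at chr12:103863620-103863869. The first base of the core lay 32, 29 and 21 bases before the RefSeq start. The GENCODE starts of Alb (chr5:90460897) and Serpina1a (chr12:103863562) lie further downstream, so the distances from those are larger.
Alb: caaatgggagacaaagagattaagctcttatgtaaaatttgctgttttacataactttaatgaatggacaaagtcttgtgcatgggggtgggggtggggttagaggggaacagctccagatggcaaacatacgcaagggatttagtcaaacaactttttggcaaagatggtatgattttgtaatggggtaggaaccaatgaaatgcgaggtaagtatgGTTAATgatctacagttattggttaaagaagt
Fgb: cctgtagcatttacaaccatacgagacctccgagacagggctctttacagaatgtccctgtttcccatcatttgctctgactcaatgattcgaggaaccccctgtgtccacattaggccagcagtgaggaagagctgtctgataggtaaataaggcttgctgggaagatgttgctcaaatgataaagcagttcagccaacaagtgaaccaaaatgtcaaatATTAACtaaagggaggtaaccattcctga
Serpina1a: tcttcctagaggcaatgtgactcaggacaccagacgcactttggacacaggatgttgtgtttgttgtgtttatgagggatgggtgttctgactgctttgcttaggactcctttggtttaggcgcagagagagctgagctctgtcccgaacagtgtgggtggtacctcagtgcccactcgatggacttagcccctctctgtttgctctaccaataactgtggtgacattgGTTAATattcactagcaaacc
RefSeq upstream sequences were at hand for 23 of the 33 genes, 15 hepatocyte and 8 intestinal. GTTAAT on either strand occurred in 6 of the 15 hepatocyte windows (Alb, Fabp1, Fga, Fgb, Serpina1a and Serpina1c), in 1 of the 8 intestinal windows (Cdx2), and in 6.43% of the 32851 windows of that length in the table. The HNF4 site CAAAGTCCA was in none of the 23 windows and in 0.384% of all windows. TTTATG, a site of CDX factors, was in 4 hepatocyte windows, in 0 intestinal windows and in 10.8% of all windows. TATAAA, the TATA box, was in 4 hepatocyte and 2 intestinal windows against 12.4% of all. These are matches of letters and not bound sites.

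Hepatocyte transcripts filled one library. The 20 genes took 290139 reads in control replicate 1, or 1.99% of its reads on genes (95% Wilson interval 1.982 to 1.996%, counting error only). Their share was 0.0162% in control replicate 2, 0.0203% in control replicate 3, and 0.0375%, 0.0261% and 0.0219% in cKO replicates 1 to 3. Each of the 20 had its highest value in control replicate 1, and 17 had at least 90% of their summed normalised value there. Trf was just inside that mark with 90.2%, and Cps1 with 83.3%, Cyp2e1 with 78.8% and Hp with 69.3% were outside it. Without that library the shares of the other 2 controls lay below those of all 3 cKO libraries.

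**Figure D1:**
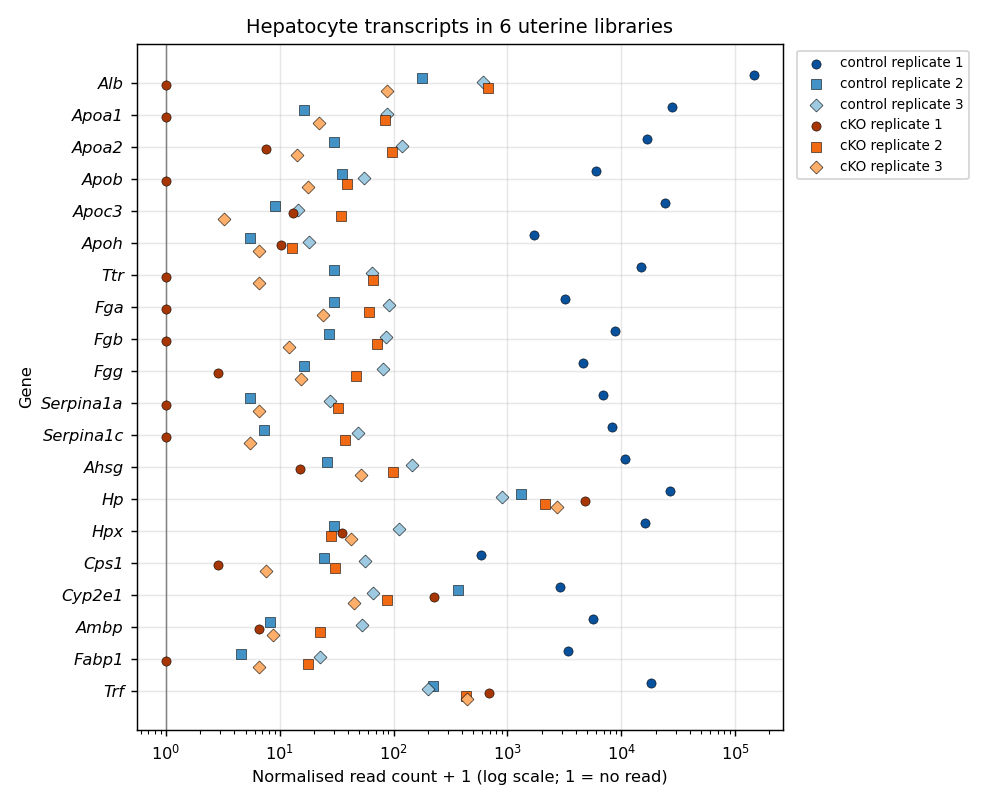
Normalised read count plus 1 (log axis) of the 20 hepatocyte genes, 1 point per library, with controls in blue and cKO libraries in orange. Control replicate 1 is the rightmost point in every row, from 579 (Cps1) to 146402 (Alb), and cKO replicate 1 sits on the line of no reads for 9 genes.

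Albumin, the chief protein of plasma, showed the pattern at full size. Alb (chr5:90460897-90476602, 16 exons after merging) stood at 146402 normalised counts in control replicate 1, 178 in replicate 2 and 602 in replicate 3. The cKO values were 0, 673 and 86.2. Its second highest library was thus a cKO library, 218-fold below control replicate 1, and the other 2 controls lay within the cKO range. The 0 in cKO replicate 1 came from 16579573 reads on genes and allows up to 2.79 normalised counts, the worth of 3 reads. Ttr, the transthyretin carrier of thyroid hormone and retinol-binding protein, had 14935, 28.8 and 64.1 in controls against 0, 65.3 and 5.52 in cKO libraries, again with a cKO library second.

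The apolipoproteins followed. Apoa1, the main protein of high-density lipoprotein, stood at 27680, 15.3 and 86.3 in controls against 0, 82.9 and 21.0 in cKO libraries. Apoa2, its partner in the same particle, had 16789, 28.8 and 118 against 6.50, 95.6 and 13.3. Apoc3, an inhibitor of triglyceride clearance, had 24029, 8.09 and 13.3 against 12.1, 33.2 and 2.21. Control replicate 1 exceeded the next library 725-fold for Apoc3, the steepest drop of the 20, while the remaining 5 libraries ran from 2.21 to 33.2 with the groups mixed. Apob, the scaffold of very-low-density lipoprotein, stood at 5941, 34.2 and 53.4 in controls against 0, 38.03 and 16.6 in cKO libraries. Apoh, which binds phospholipid, had 1712, 4.49 and 16.9 against 9.29, 11.7 and 5.52. All 5 are secreted by hepatocytes, and Apoa1, Apob and Apoc3 are made by small intestine as well.

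Per length, albumin led in the liver-rich library. On the RPKM scale (reads scaled by gene length and by the reads on genes), control replicate 1 held Alb at 3515, Apoa2 at 1758, Apoc3 at 1333, Apoa1 at 1259, Hp at 938, Ttr at 689 and Hpx at 602. The lowest of the 20 on that scale was Cps1 at 5.86. In cKO replicate 1 the order was another: Hp stood at 193, Trf at 13.4 and Cyp2e1 at 6.71, while Hpx was at 1.49 and Alb at 0.

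The 3 fibrinogen chains, which assemble into the clotting protein, kept together. Fgb, the beta chain, stood at 8784, 26.1 and 84.5 normalised counts in controls against 0, 70.2 and 11.0 in cKO libraries. Fgg, the gamma chain, had 4605, 15.3 and 80.1 against 1.86, 45.8 and 14.4. Fga, the alpha chain, had 3227, 28.8 and 89.9 against 0, 59.5 and 23.2. In all 3 genes the order of libraries was control replicate 1, control replicate 3, cKO replicate 2 and then the rest.

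Serpina1a and Serpina1c encode alpha-1 antitrypsin isoforms, inhibitors of serine proteases. Serpina1a stood at 6901, 4.49 and 26.7 in controls against 0, 31.2 and 5.52 in cKO libraries, and Serpina1c at 8267, 6.29 and 47.2 against 0, 36.1 and 4.42. Their GENCODE vM21 reading frames, compared over 1242 bases back from the stop codon, differed at 19 bases (98.5% identity) and shared an identical run of 728 bases. The 60 bases given next hold 10 of the 19 differences, in capitals, and lie in the part that encodes the reactive loop, the bait for the protease. They span positions 1099 to 1158 of the compared frame.
Serpina1a: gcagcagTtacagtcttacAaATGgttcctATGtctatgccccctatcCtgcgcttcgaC
Serpina1c: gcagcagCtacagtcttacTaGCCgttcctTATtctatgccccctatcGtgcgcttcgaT
Each of the pair shared near-identical stretches with 6 other genes, Serpina1b, Serpina1d and Serpina1e among them, and 31.5% of Serpina1c exon bases lay opposite another gene, B430119L08Rik. The split of reads within this family is therefore uncertain. Ambp, the precursor of alpha-1-microglobulin and bikunin, stood at 5596, 7.19 and 51.6 in controls against 5.58, 21.5 and 7.73 in cKO libraries. Ahsg, or fetuin-A, an inhibitor of mineral deposition, had 10817, 25.2 and 144 against 13.9, 98.5 and 50.8.

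A pair of carriers had levels outside control replicate 1 that were far above those of most members. Hp, haptoglobin, which binds free haemoglobin, stood at 26779, 1316 and 898 in controls against 4784, 2118 and 2730 in cKO libraries. Outside control replicate 1, the 2 controls lay below all 3 cKO libraries. Trf, transferrin, which carries iron, had 18367, 223 and 201 in controls against 687, 435 and 441 in cKO libraries, with the same order of groups. Hpx, hemopexin, which binds haem, had 16050, 28.8 and 109 against 34.4, 27.3 and 40.9 and did not share it. Trf exons were overlapped on the same strand by Gm20425 over 63.5% of their bases, and stretches of at least 100 bases at 95% identity or more matched transcripts of 45 other genes, so its count is uncertain.

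Enzymes and Fabp1 completed the set. Cps1, the first enzyme of the urea cycle, stood at 579, 23.4 and 55.2 in controls against 1.86, 29.3 and 6.63 in cKO libraries, with control replicate 1 10.5-fold above the next. Cyp2e1, a cytochrome P450 that oxidises ethanol, had 2910, 364 and 64.9 against 223, 86.8 and 44.2, so control replicate 2 and cKO replicate 1 came next. Stretches of Cyp2e1 of up to 188 bases also matched 83 other genes. Fabp1, the fatty acid binding protein of liver and small intestine, had 3383, 3.59 and 21.4 against 0, 16.6 and 5.52.

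Levels outside control replicate 1 were not a scaled copy of that library. Set against it gene by gene, the median member stood at 0.213% in control replicate 2, 0.910% in control replicate 3, 0.0395% in cKO replicate 1, 0.605% in cKO replicate 2 and 0.209% in cKO replicate 3. Within control replicate 3 the genes ranged from 0.0555% (Apoc3) to 9.52% (Cps1). Apoc3 was also the lowest in control replicate 2 (0.0337%), cKO replicate 2 (0.138%) and cKO replicate 3 (0.00920%). In cKO replicate 1, 9 genes had no read, Alb, Apoa1, Apob and Ttr among them, while Hp stood at 17.9% of its level in control replicate 1.

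**Figure D2:**
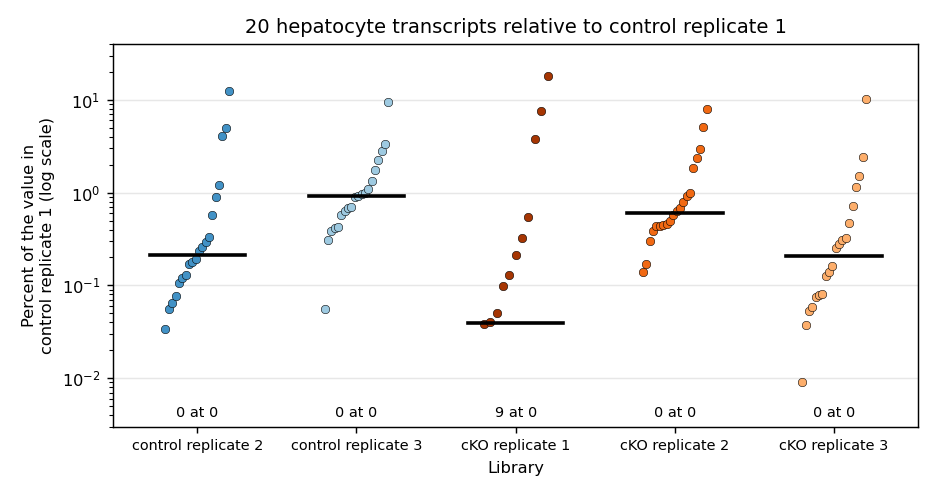
Each of the 20 hepatocyte genes in 5 libraries, as a percent of its value in control replicate 1 (log axis), sorted within the library; the black bar is the median over all 20 and genes with no read are counted at the foot. Medians run from 0.0395% in cKO replicate 1 to 0.910% in control replicate 3, and single genes spread over more than the distance between libraries.

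Leaving out Hp, Trf and Cyp2e1, a choice made after their values were seen, moved the smaller shares far more than the large one. The 17 genes left took 250725 reads (1.72%) in control replicate 1. They took 519 and 1871 reads in control replicates 2 and 3 and 92, 1472 and 290 reads in cKO replicates 1 to 3. The 3 genes left out made 98.5% of the set's reads in cKO replicate 1 and 80.3% in control replicate 2, against 13.6% in control replicate 1. Outside control replicate 1 the 2 groups were then interleaved, with control replicate 3 highest and cKO replicate 1 lowest. The adipocyte gene Adipoq, for the hormone adiponectin, stood at 89.0, 378 and 63.2 in controls against 407, 123 and 138 in cKO libraries. It was highest in cKO replicate 1 and control replicate 2, as was Cyp2e1 outside control replicate 1. Hp was next highest in cKO replicate 1 too, but its value in control replicate 2 (1316) was below those of all 3 cKO libraries. The acute phase gene Saa3 had 4817, 1113 and 2348 against 3520, 3614 and 3131, and Lcn2, another, had 2237, 155 and 117 against 260, 138 and 260. The part of fat or of an acute phase response in these values was not tested.

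Most other liver genes listed, outside the 33, were also highest in control replicate 1. All 33 of a list of other secreted hepatocyte proteins were highest in control replicate 1, where they took 0.770% of reads against at most 0.0191% elsewhere. Apoc1 (16655), Gc (13324, the vitamin D binding protein), Serpina3k (12454) and Serpina1b (11478) led. Hepatic enzymes and transporters did the same in 31 of 31 cases, with Adh1, alcohol dehydrogenase, at 8198 and Pck1, which starts gluconeogenesis from oxaloacetate, at 5687. Adh1 also had 655 to 3173 elsewhere. All 13 liver transcription factors were highest in control replicate 1. Hnf4a, a regulator of hepatocyte identity, had 1418 and 97.1 in control replicates 1 and 2, 16.6 in cKO replicate 2 and 0 in the other 3. Cebpa, which fat also makes, ran from 551 to 1279 in all 6.

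Genes were also listed by zone of the liver lobule, periportal near the incoming blood and pericentral near the outgoing vein. Of 10 periportal genes 9 were highest in control replicate 1, such as the urea cycle gene Arg1 at 4895, and Ctsc was not. Hal, Sds, Pck1, Ass1 and Arg1 among them were already counted on the enzyme list. Of 10 pericentral genes 8 were highest there, such as Rgn at 628, and Glul (3602 to 8065) and Oat (1981 to 2808) were not. Those 2 genes made most of the pericentral reads, so the list as a whole took 0.0747% in control replicate 2 and 0.0734% in control replicate 1. Cyp2c29, Cyp7a1 and Lect2 of the pericentral list were already counted among the enzymes and secreted proteins. Genes of resident liver cells peaked in control replicate 1: Clec4f, a marker of Kupffer cells, the macrophages of the liver, stood at 1413 in control replicate 1, at 1.78 in control replicate 3 and at 0 in the other 4. All 8 listed Kupffer and liver endothelial genes peaked in that library and took 0.0128% of its reads against at most 0.000775% elsewhere. Clec4f made 1413 of the 2282 normalised counts of the list there. It was the 1 gene of the 8 with at least 90% of its summed value in that library. Cd5l, for example, had 256 there and 8.90 to 33.1 elsewhere. The share of the list of 5 fetal liver and yolk sac genes did not follow: it was 0.0803% in control replicate 1, the lowest of the 6, and 0.254% in cKO replicate 3. That share was mostly H19, which made 13536 of the 14284 normalised counts of the list in control replicate 1 and had 18459 to 40016 elsewhere. Of the 5 genes 2, Afp and Apoa4, were highest in control replicate 1. Afp, which marks fetal liver, stood at 19.5 there and at 8.99 or less elsewhere.

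Further values differed in control replicate 1 beside the liver lists. Mitochondrially encoded genes took 23.3% of its reads against 7.92 to 13.3% elsewhere, and all 13 were highest there. Its share of 13 skeletal muscle genes was 3.09% against 4.28 to 9.12%. General epithelium genes took 0.0410% of its reads, 0.0194% in control replicate 2 and at most 0.00578% elsewhere. Ltf, lactotransferrin, a gene of uterine epithelium, stood at 2545 against 17.6 to 353 in the others. The part of these differences in the hepatocyte values was not tested.

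**Figure D3:**
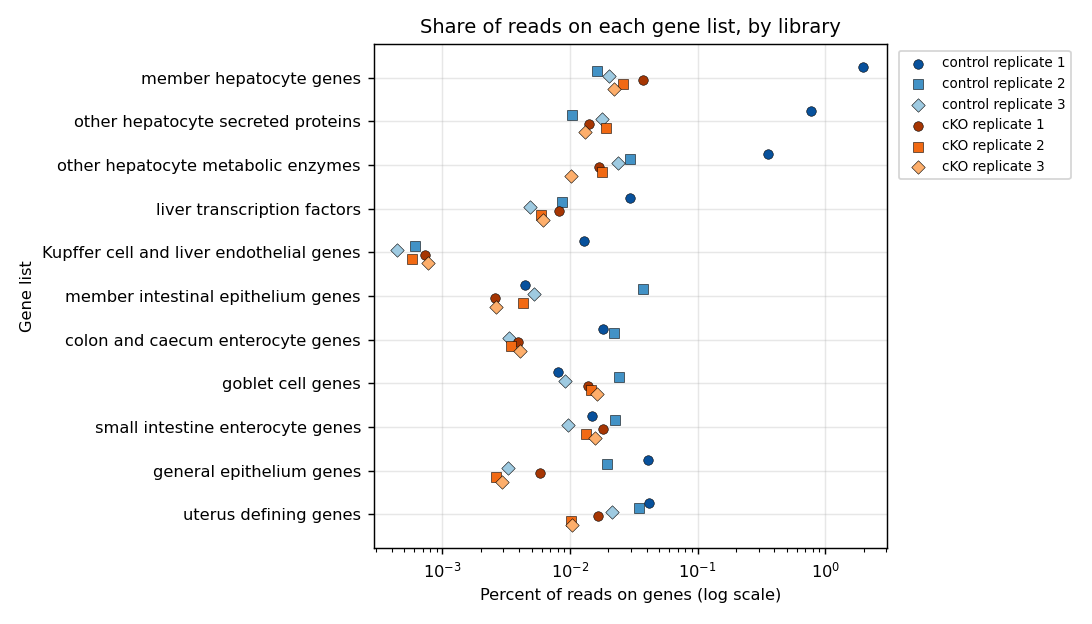
Percent of reads on genes (log axis) taken by each of 11 gene lists, 1 point per library; "member" marks the 20 and the 13 genes described. The liver lists drawn share a rightmost point, control replicate 1. The periportal list is not drawn, nor are the pericentral and fetal liver lists, whose shares were not highest in that library. The 13 intestinal genes have control replicate 2 at 0.0374% against 0.00524% or less elsewhere.

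Intestinal transcripts peaked in another control. The 13 genes took 6070 reads in control replicate 2, or 0.0374% (95% Wilson interval 0.0364 to 0.0383%), and 0.00444% and 0.00524% in control replicates 1 and 3. In cKO replicates 1 to 3 they took 0.00259%, 0.00427% and 0.00264%. Of the 13, 12 were highest in control replicate 2, and 6 had at least 90% of their summed value there. Numbers of genes with no read were 5, 0 and 9 in controls against 7, 10 and 9 in cKO libraries. Most of these genes rested on few reads, and in the cKO libraries 10 or 11 of the 13 had 3 reads or fewer.

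Enterocyte genes carried most of the signal. Car1 (chr3:14766216-14808368), a carbonic anhydrase abundant in colon, reached 2924 normalised counts in control replicate 2, with 1.22 and 0 in control replicates 1 and 3 and 2.79, 0 and 4.42 in cKO replicates 1 to 3. Control replicate 2 exceeded the next library 661-fold for Car1. Guca2a, guanylin, which regulates salt and water secretion, had 0, 373 and 0 against 1.86, 0 and 0. Fabp2, the intestinal fatty acid binding protein, had 51.2, 232 and 0 against 0, 4.88 and 0, so control replicate 1 came second. Vil1, villin, which bundles actin in microvilli, had 8.53, 192 and 0 against 2.79, 0 and 0. Phgr1, a small protein of gut epithelium, had 81.8 in control replicate 2 and no read in the other 5. Car1 shared a stretch of 476 bases with the gene model Gm5843, and the reads may be split between them.

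The goblet cell genes and the cadherin Cdh17 varied in how far 1 library held them. Clca1, secreted with mucus, stood at 4.88, 119 and 0 in controls and at 0 in all 3 cKO libraries. Muc2, the gel-forming mucin, had 18.3, 229 and 74.7 against 32.5, 11.7 and 24.3. Tff3, trefoil factor 3, had 261, 166 and 0 against 0, 0 and 0. It was the 1 member of the 13 that was highest in control replicate 1. Cdh17, liver-intestine cadherin, which joins epithelial cells, had 23.2, 91.7 and 11.6 against 0, 0 and 0. Among all 33 genes Cdh17 was the 1 whose groups did not overlap, with the controls above; among all genes tested 10.5% had 3 controls above 3 cKO libraries. No member had 3 controls below 3 cKO libraries, beside 9.04% of genes tested.

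The identity factors and the remaining pair differed in breadth. Cdx2 stood at 53.0 in control replicate 2 with no read elsewhere. Cdx1 had 0, 35.9 and 3.56 in controls against 0, 0 and 2.21 in cKO libraries. Reg3g, an antibacterial lectin, had 3.59 in control replicate 2, 0.929 in cKO replicate 1 and no read elsewhere, which is too few reads to compare. Lgals4, galectin-4, was present throughout, at 422, 954 and 641 in controls against 358, 650 and 394 in cKO libraries, and the groups overlapped. Without Lgals4 and Muc2, a choice made after their values were seen, the other 11 genes took 287, 4753 and 17 reads in controls and 9, 5 and 6 reads in cKO libraries.

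**Figure D4:**
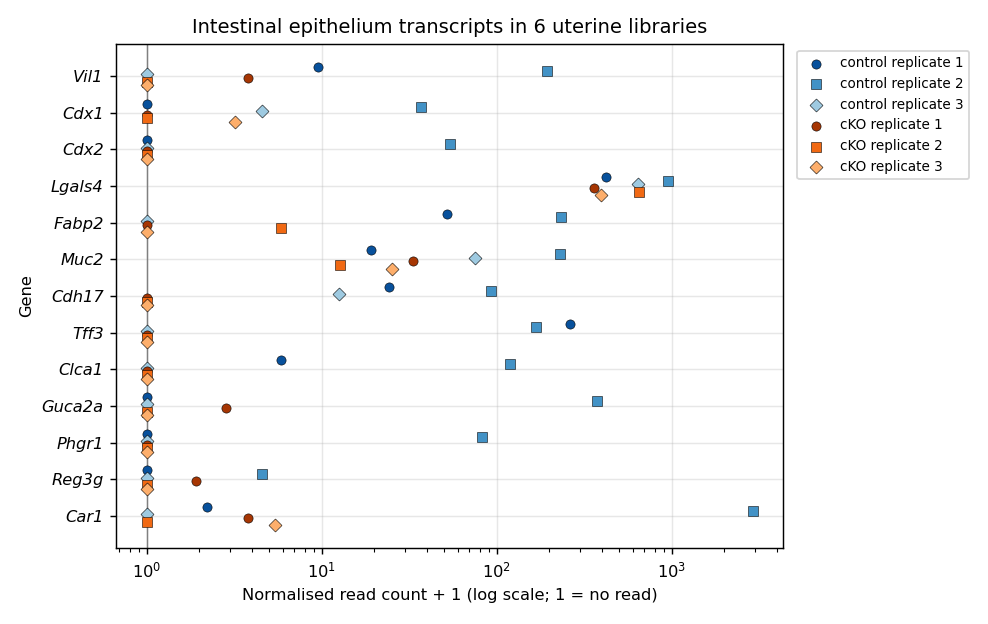
Normalised read count plus 1 (log axis) of the 13 intestinal genes, 1 point per library. Control replicate 2 is the rightmost point for 12 genes, from 3.59 (Reg3g) to 2924 (Car1), Tff3 has control replicate 1 on the right, and Lgals4 is spread from 358 to 954 over all 6 libraries.

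Other gut lists added detail on the segment and on the cells. Among 13 colon and caecum genes found, 8 were highest in control replicate 2: Muc3 stood at 678 there against 2.79 or less elsewhere, and Slc26a3, a chloride exchanger of the colon surface, at 191 against 6.10 or less. Mettl7b (2025) and Aqp8 (602) were highest in control replicate 1, and Slc37a2 ran from 138 to 925 in all 6. As a whole the colon and caecum list took 0.0222% of reads in control replicate 2 and nearly as much, 0.0181%, in control replicate 1. Of its 13 genes 3 had at least 90% of their summed value in control replicate 2. Small intestine genes were divided, with 4 of 12 highest in control replicate 2 and 4 in control replicate 1. Anpep ran from 1083 to 2951 in all 6 libraries, and Alpi, the phosphatase of small intestine villi, had 2.70 in control replicate 2 and no read elsewhere. Of 13 goblet cell genes 7 were highest in control replicate 2, the members Muc2 and Clca1 among them. The goblet list took 0.0242% of reads there and at most 0.0162% elsewhere. Outside the members, Zg16 stood at 267 in control replicate 2 and at 2.93 or less elsewhere. Fcgbp had 327 there and 251 in control replicate 1, and Ccl9 was highest in cKO replicate 3 (2529, against 2282 in control replicate 2). Of the 4 Paneth and antimicrobial genes found, 2 were highest in control replicate 2: Reg4 had 51.2 there and no read elsewhere, and Lyz1, a lysozyme also made by Paneth cells, had 485 against 29.3 to 154. Mmp7 was highest in control replicate 1 (106) and Ang4 in control replicate 3 (19.6). Of 11 brush border genes 7 were highest in control replicate 2, such as Cdhr2 (110), Myo1a (168) and Eps8l3 (48.5). Those 7 include Vil1, a member of the 13. Cdhr5 was highest in control replicate 1 (206 against 150). Plec, which many tissues express, set the share of that list, which was highest in cKO replicate 3 (0.0584%). Of 11 intestinal transcription factors 5 were highest in control replicate 2 and 3 in control replicate 1, where the list had its highest share (0.00520%). The 5 include Cdx1 and Cdx2, which are members of the 13. The enteroendocrine and tuft cell list (0.0126%) and the stem and crypt list (0.0312%) had their highest share in control replicate 3, and 1 of 10 and 1 of 7 genes were highest in control replicate 2. Pancreas, stomach and kidney lists took at most 0.00138% of reads in any library. Only 5 of 12, 3 of 8 and 2 of 8 of their genes were found, so these shares cover a part of each list.

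Genes that both organs make followed the liver-rich library. Hnf4a, Apoa1, Apob, Apoc3, Fabp1 and Cyp3a11 are made by liver and small intestine, and all 6 were highest in control replicate 1. Of the 14 such genes listed, 13 peaked there, and in control replicate 2 they took 0.00508% of reads against 0.461% in control replicate 1. Apoa1, Apob, Apoc3, Fabp1, Cps1 and Ambp in this list are hepatocyte members already described. They supplied most of its reads in control replicate 1, so its share there is not independent of the hepatocyte share. Apoa4, which enterocytes of the small intestine make in quantity, stood at 329 in control replicate 1 and at 0 in control replicate 2.

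Genes outside the 33 with the same pattern were ranked by their value among protein-coding genes with at least 90% of their summed value in 1 library, over 6 libraries. For the liver pattern the first 10 included Apoc1, Gc, Serpina3k, Serpina1b, Mug1, Kng1, Mug2, Mup3 and Bhmt, from 16655 down to 5527 normalised counts in control replicate 1. For the intestinal pattern they were Lypd8 (1013), Dmbt1 (714), Cyp2c55 (708), Muc3 (678), 1810065E05Rik (677), Gsdmc2 (589), Gsdmc4 (350), Zg16 (267), Krt20 (240) and Krt17 (234). Counting genes that reached 30 in 1 library and had at least 90% of their summed value there, control replicate 1 had 302, control replicate 2 had 42 and control replicate 3 had 37. The cKO libraries had 1, 2 and 0. In control replicate 1 those 302 genes made up 3.55% of reads, and 17 of the 20 hepatocyte genes were among them. In control replicate 2 the 42 made up 0.0760%, with 6 of the 13 intestinal genes.

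**Figure D5:**
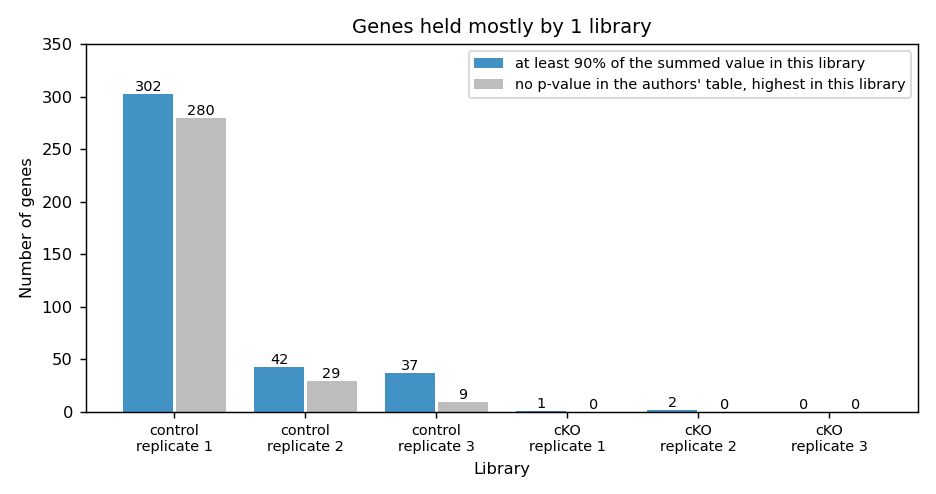
Number of genes per library that reached 30 normalised counts and had at least 90% of their summed value there (blue), and number of genes without a p-value in the authors' table that were highest there (grey). Control replicate 1 leads with 302 and 280, and the 3 cKO libraries have at most 2 and 0.

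The comparison of groups called no member. On log2(normalised count + 1), limma with Benjamini-Hochberg adjustment over 16314 tested genes called 145 lower and 45 higher in cKO uteri at an adjusted p under 0.05, or 0.889% and 0.276%. All 20 hepatocyte genes were tested and 0 were called, with 1 (Cps1) at an unadjusted p under 0.05, which 13.7% of all tested genes reached. All 20 had a negative log2 fold change, with a median of -3.85 beside 0.00 for all genes tested. These values carry the library that was used to choose the genes. Alb had a log2 fold change of -6.01 ± 3.83 (SE, n = 3 and 3; limma adjusted p 0.587). Cps1 had -3.41 ± 1.30 (limma adjusted p 0.314, the lowest of the 20). The control mean of Alb was 49061 ± 84301 normalised counts (SD, n = 3), of which control replicate 1 supplied 99.5%, and the cKO mean was 253 ± 366.

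Without control replicate 1 the picture changed. The median log2 fold change of the 20 genes moved to -1.26 and 18 were negative. Hp turned from -0.06 ± 1.34 to 1.48 ± 0.34, with a limma adjusted p of 0.0761. Trf turned from -0.88 ± 1.86 to 1.26 ± 0.24 and was called higher, with a limma adjusted p of 0.0303 for 2 controls against 3 cKO libraries. That fit called 0.685% of 17075 genes higher. The genes were chosen with these values known and the count of Trf is uncertain, so no result is read from that call. Apoc3 went from -3.70 ± 3.23 to -0.02 ± 1.10. Alb stayed negative at -3.08 ± 3.23, which is less than its standard error. edgeR called 0 of the 20 with all 6 libraries, beside 0.736% of all genes called lower, and 0 had an unadjusted p under 0.05, which 13.8% of all genes had.

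Of the intestinal genes 3 of 13 passed the filter on low reads, Lgals4, Muc2 and Cdh17, and limma called 0, with 1 (Cdh17) at an unadjusted p under 0.05. Lgals4 had a log2 fold change of -0.50 ± 0.33 (limma adjusted p 0.570), and Muc2 had -1.65 ± 0.85 (limma adjusted p 0.449). Cdh17 had -4.93 ± 1.11 (limma adjusted p 0.0789). It passed the filter through the controls alone, with 19, 102 and 13 reads there against 0, 0 and 0 in cKO libraries. No result is therefore read from its fits. Its control mean of 42.1 ± 43.3 normalised counts was at least 14.0-fold the 3 reads per library that the cKO zeros allow, and at least 5.77-fold without control replicate 2. Without control replicate 2 Cdh17 had -4.12 (limma adjusted p 0.314), and Muc2 moved to -0.79. On the recovered reads DESeq2 called Cdh17 (adjusted p 3.91e-05) and Muc2 (adjusted p 0.0481) lower, beside 2.40% of its tested genes, while edgeR called 0 of the 3, with 2 at an unadjusted p under 0.05. The other 10 genes had reads mainly in 1 or 2 libraries and did not pass the filter, Car1 included.

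The authors' deposited table gives no p-value for 318 of its 26018 genes, or 1.22%, and lists an adjusted p of 1 for each. Of the 20 hepatocyte genes 18 were among them, all but Cps1 and Cyp2e1, and of the 13 intestinal genes 3 were: Guca2a, Phgr1 and Car1. DESeq2 run on the recovered reads left the same 318 genes without a p-value through its filter on outlying counts, and the library farthest from the fit was control replicate 1 for 280, control replicate 2 for 29 and control replicate 3 for 9. For Alb the authors' deposited table gives a log2 fold change of -7.60, and for Apoc3 -8.98, both without a p-value. The authors' deposited table calls 609 genes lower (2.37%) and 227 higher (0.883%), and Cdh17 (adjusted p 4.05e-05) and Muc2 (adjusted p 0.0494) are the members among them. With the outlier filter switched off, DESeq2 called 2.75% of all genes lower, among them 7 of the 20 hepatocyte genes (Apoa2, Apoc3, Apoh, Fgg, Ahsg, Hpx and Ambp), and 3 of the 13 intestinal genes (Muc2, Cdh17 and Phgr1). Omitting the 33 genes changed the size factors by -0.0247 to 0.0153%.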

How the data were processed

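RNA of uterine tissue was sequenced as 1 library per animal, 3 control and 3 cKO. Per the submitters' processing notes, HISAT2, SAMtools and featureCounts were used (no versions named) with GRCm39 as build; how strand and multiple matches were handled is not stated in these sources. Of 25988 gene identifiers found in GENCODE vM21 (GRCm38), 25239 had the same coordinates in the deposited table, so positions are given on GRCm38. Signal values in the deposited table are read counts scaled by the authors with 1 size factor for each library; 100% of values were whole multiples of the worth of 1 read within 0.01 reads, and whole reads were recovered. The authors' deposited table also holds their log2 fold changes, p-values and adjusted p-values, from a tool that no source used here names.

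The 33 genes and all 31 lists were chosen with earlier results of these data known. The main test was limma 3.58.1 (R 4.3.3) on log2(value + 1), with trend and robust empirical Bayes, on genes kept by filterByExpr of edgeR 4.0.16, which served with DESeq2 1.42.0 as an alternative. The edgeR test foreseen for raw counts was not the main one because the deposited unit is normalised. DESeq2 without its outlier filter, size factors without the 33 genes and shares without widely present members were added after seeing the data. Adjusted p-values used a threshold of 0.05. Near-identical transcripts were found with blastn 2.17.0 (at least 95% identity over 100 bases). The fit was tested on simulated data. From each list up to 4 genes with the highest value in its main library were to be named; other list genes named here were chosen after their values were seen. Some genes that these rules take are not reported here. Intervals and limits of 3 reads cover counting error only, since reads made by PCR are not independent molecules, and p-values measure the spread between 3 animals per group.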

Additional observations from a re-analysis of the deposited data

How the results depend on the processing

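The 20 hepatocyte genes had 0 calls in the main test, 0 to 1 when 1 library was left out in turn and 7 with DESeq2 without its outlier filter. The 13 intestinal genes had 0, against 1 without the filter on low reads (Cdh17), 2 with DESeq2 and 3 with DESeq2 without its outlier filter. They had 0 to 2 when 1 library was left out, the 2 being Fabp2 and Tff3 without control replicate 3. The main fit tested 3 of the 13, without Fabp2 and Tff3, and the fit without control replicate 3 tested 5. Fabp2 and Tff3 passed the filter there only through control replicates 1 and 2, where they are high. No result is read from those 2 calls. Over all genes, 145 lower calls became 616 with DESeq2, 715 without its outlier filter and 42 to 347 without 1 library. The 45 higher calls became 82 without the filter on low reads, 12 with scaling to library totals, 230 with DESeq2, 236 without its outlier filter and 1 to 117 without 1 library. The log2 fold change of Hp turned positive without control replicate 1 (1.48), without cKO replicate 2 (0.19) and without cKO replicate 3 (0.01), and that of Trf without control replicate 1 (1.26), within ranges of -0.97 to 1.48 and -1.99 to 1.26 when 1 library was left out; the cause was not tested. The hepatocyte share of 1.99% in control replicate 1 became 2.59% with mitochondrially encoded genes taken out of the total, 2.05% without skeletal muscle genes, 1.17% without Alb and 1.72% without Hp, Trf and Cyp2e1. The intestinal share of 0.0374% in control replicate 2 became 0.0406%, 0.0397%, 0.0173% without Car1 and 0.0293% without Lgals4 and Muc2.

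Same-numbered control and cKO libraries had r across genes of -0.04, -0.19 and 0.05 in their deviations from the group means. Control replicates 1 and 2 each had a higher r with another cKO library (0.13 and 0.12). Deviations from a mean of 3 libraries are tied to each other, so these r values cannot show whether the numbers mark pairs. The labels do not say, and the main fit did not pair the libraries. With the replicate block, 149 genes were lower and 34 higher, and 0 hepatocyte and 0 intestinal genes were called. In each cKO library 10 or 11 of the 13 intestinal genes had 3 reads or fewer, and levels that low are not resolved at this depth.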
